A study of Mus musculus with 2 samples.

Results

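The Zbtb genes encode transcription factors that join an amino-terminal BTB domain to carboxy-terminal zinc fingers. They were taken as every gene symbol that began with Zbtb followed by a number and at most 1 letter, in the gene tables of both RNA-seq libraries. The rule found 40 genes among 23951 symbols present in both tables, on 15 chromosomes, and 0 Zbtb symbols were present in 1 library only. The BTB domain lets these proteins pair and recruit corepressor complexes that carry histone deacetylases, and the zinc fingers read DNA, so most members are known as repressors. *Zbtb33* encodes Kaiso, which binds methylated CpG pairs and a short unmethylated site and was named as a partner of p120 catenin. *Zbtb20* is known from the hippocampus, from the formation of astrocytes and from liver.

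The libraries were made from optic nerves at P12, an age at which this white matter tract is being myelinated. One library was from the control genotype Tcf7l2 c/+; OLig1-cre and 1 from the mutant genotype Tcf7l2 c/c; OLig1-cre, designated *Tcf7l2*ΔHMG in the study. Both genotypes carried the Cre driver of the oligodendrocyte (OL) lineage and at least 1 floxed *Tcf7l2* allele, on a mixed background with both sexes used, so the control was heterozygous for the deletion. Cre removes exon 11, the part that codes for the HMG box through which the protein binds DNA, and leaves an in-frame transcript. The number of animals behind each library is not given in the sources used here.

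Levels were read as FPKM, a fragment count scaled to transcript length and to library size, with the Cufflinks interval of each row given in brackets where it is quoted. Such an interval covers the counting and assignment error inside 1 library and holds no spread between animals, so no difference was tested and all comparisons describe these libraries. A gene was compared if its FPKM reached 1.0 in either library and neither row was marked as failed by Cufflinks, which held for 14199 symbols and 38 of the 40 members. A log2 ratio is that of mutant over control after 0.1 was added to each FPKM, a fold change is the plain ratio of FPKM, and a gene was counted as higher or lower when its log2 ratio passed a 1.5-fold difference.

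The sequencing depth, read from the interval bounds of short rows, was 27624000 fragments for the control and 39938000 for the mutant, at which 3 fragments on 1 kb come to an FPKM of 0.109 and 0.0751. *Tcf7l2* itself had an FPKM of 17.8 (control) and 14.6 (mutant), and since the excision leaves the rest of the transcript in place this level does not check the genotype. Markers of the labelled tissue were abundant, since 6 OL markers summed to 27493 FPKM (control) and 16819 (mutant) and 5 astrocyte markers to 4645 and 5320. Markers of other cells differed as well. The 4 neuronal markers summed to 20.4 and 37.5 and the 5 haemoglobin and haem genes to 252 and 631. All of these were more than 1.5-fold higher in the mutant, beside 15.4% of all compared genes. Of them, *Rbfox3* (0.658 and 1.51) and *Alas2* (0.607 and 1.39) entered the comparison only through the mutant, so their level there had to be the higher one. *Hba-a1* and *Hba-a2* share a row, which was counted for each. The sums for 4 meningeal fibroblast markers were 762 and 1073, for 5 microglial markers 96.4 and 112, and for 5 lymphocyte markers 3.19 and 4.26. The sums were lower in the mutant for 3 markers of OL precursors (281 and 197), 4 endothelial markers (106 and 95.1) and 3 mural markers (93.6 and 76.8). In bulk tissue, fewer cells of a type and less RNA per cell cannot be told apart, and the part of these marker differences in the results given here was not tested.

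The promoters of 3 members are printed first, picked because they differ in the letters that matter to Kaiso and to Tcf7l2. Windows came from RefSeq (GRCm38.p6), which had 48 of them for 35 of the 40 members, and each sequence is the 250 bases before an annotated start site, 5′ to 3′. Capitals mark a match to TCAAAG, the core that Tcf7l2 and its relatives bind, or to TCCTGCNA, the unmethylated Kaiso site, on either strand. The windows are *Zbtb33* at chrX:38189543-38189792 on the plus strand, *Zbtb37* at chr1:161034850-161035099 on the minus strand and *Zbtb20* at chr16:43247034-43247283 on the plus strand.
Zbtb33: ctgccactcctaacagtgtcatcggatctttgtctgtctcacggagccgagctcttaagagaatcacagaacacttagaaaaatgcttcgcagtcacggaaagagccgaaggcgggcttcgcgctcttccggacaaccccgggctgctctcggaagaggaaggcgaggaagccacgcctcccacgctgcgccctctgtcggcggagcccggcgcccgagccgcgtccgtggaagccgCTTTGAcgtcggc
Zbtb37: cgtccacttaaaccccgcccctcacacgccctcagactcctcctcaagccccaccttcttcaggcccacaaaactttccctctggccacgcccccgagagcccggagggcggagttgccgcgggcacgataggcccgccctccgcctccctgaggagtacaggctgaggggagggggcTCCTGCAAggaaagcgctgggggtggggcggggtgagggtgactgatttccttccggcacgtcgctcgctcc
Zbtb20: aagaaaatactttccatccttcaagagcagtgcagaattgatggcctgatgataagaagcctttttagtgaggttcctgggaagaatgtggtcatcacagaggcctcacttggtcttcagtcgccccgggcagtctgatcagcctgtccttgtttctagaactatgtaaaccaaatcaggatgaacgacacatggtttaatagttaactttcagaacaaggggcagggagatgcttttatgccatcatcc

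The *Zbtb33* window held the TCAAAG core on the minus strand, its first letter in the printed strand 13 bases before the start site. The *Zbtb37* window held the Kaiso site 72 bases before the start site, and the *Zbtb20* window held neither. The windows of *Zbtb4*, *Zbtb42* and *Zbtb44*, which are not printed, also held neither. Across the family, TCAAAG was found in 6 of 48 windows (12.5%), against 13.8% of all 32851 windows in the RefSeq table. Overlapping windows of *Zbtb18* held the same TCAAAG match, 187 and 195 bases before their starts, so it was counted in each. The Kaiso site was found in 4 of 48 windows (8.33%) against 4.03%, but 3 of these were windows of *Zbtb18*, so only *Zbtb18* and *Zbtb37* held it. A second Kaiso motif, CTCGCGAG, which reads the same on both strands, was found in 0 of the 48 windows and in 0.761% of all windows. A match describes the letters of a window and is not a binding site, and a window without a match says nothing of the factor.

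Most member promoters were rich in CpG, but not all. The member windows held a median of 20 CpG pairs in 250 bases and 64.6% G or C, while all windows held a median of 6.0 and 52.4%. The range among members ran from 0 to 47. The *Zbtb33* window had 27 CpG pairs and the *Zbtb37* window 18. The *Zbtb20* window stood at the low end with 3 CpG pairs and 44.8% G or C, but this gene has 21 transcripts in GENCODE M21 and the window represents 1 of its starts.

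The members also shared a gene structure. In GENCODE M21, the longest protein-coding transcript of a member had a median of 2.0 coding exons, while the 12771 protein-coding genes among those compared had a median of 8.0. The largest coding exon held a median of 78.3% of the coding bases in the members and 25.8% in those genes. In 32 of the 40 members (80.0%) more than 50% of the coding bases lay in 1 exon, which was the case for 22.3% of the compared genes. All 2013 coding bases of *Zbtb33* lie in 1 exon, and 11 of the 40 members have a single coding exon. At the other end *Zbtb40* has 18 coding exons, *Zbtb17* has 14 and *Zbtb11* has 11. *Zbtb20* has 4 coding exons, of which the largest holds 72.2% of 2223 coding bases.

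The family as a whole was expressed at a low level in the optic nerve, and it leaned slightly towards the mutant. The median FPKM of the 38 compared members was 3.73 in the control and 4.23 in the mutant, below the medians of 9.62 and 9.96 over all compared genes. On a row of their own, 35 of 38 control values and 36 of 38 mutant values reached an FPKM of 1, 11 and 13 reached 5, and 1 and 2 reached 10. The median log2 ratio of the 38 compared members was 0.13, against 0.05 over all 14199 genes, and it was 0.11 without the members that shared a row with another gene. The log2 ratio was above 0 in 25 of 38 members (65.8%), compared with 54.6% of all genes.

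**Figure D1:**
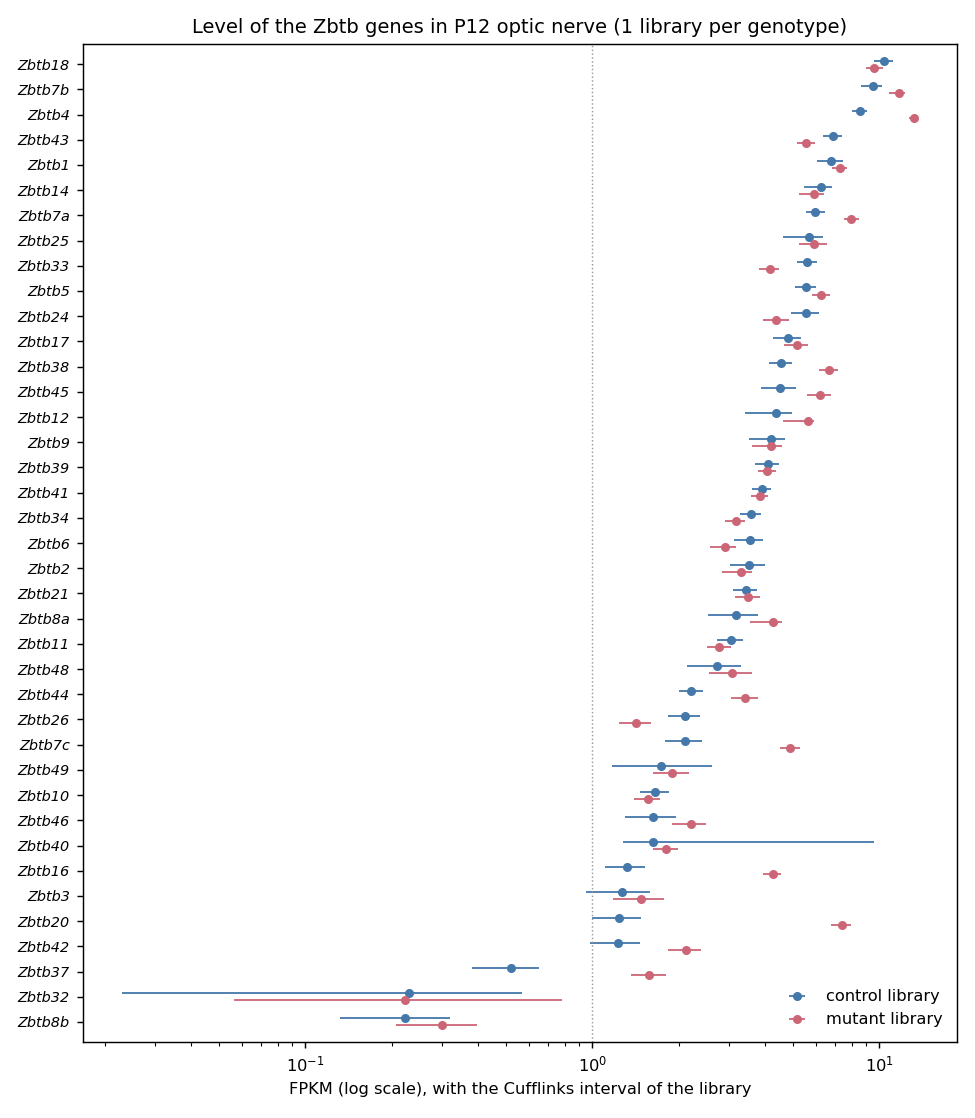
FPKM of 39 Zbtb genes (y axis, ordered by the control) in the control library (blue) and the mutant library (red) on a log scale, with bars for the Cufflinks interval of each library. The dotted line marks an FPKM of 1, and *Zbtb22* is left out because its row is shared with *Tapbp*. *Zbtb38* is shown, although its row also carries the name E030011O05Rik. *Zbtb20*, *Zbtb16*, *Zbtb37* and *Zbtb7c* are the members whose points lie farthest apart.

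More than 1.5-fold higher in the mutant were 7 of 38 members, namely *Zbtb20*, *Zbtb16*, *Zbtb37*, *Zbtb7c*, *Zbtb42*, *Zbtb4* and *Zbtb44*. The background was 15.4% of all compared genes higher, so 7 of 38 is near the share of any gene. More than 1.5-fold lower were 0 of 38 members against a background of 8.52%, and *Zbtb26* came nearest with a log2 ratio of -0.54. The intervals of both libraries did not overlap in 16 members (42.1%), 12 of them higher and 4 lower in the mutant, compared with 52.4% of all genes. Log2 ratios within 0.2 of 0 were found in 18 members (47.4%) and in 36.8% of all genes. Under a scaling of all rows, named or not, to the same sum, the median of the members was -0.55 and that of all genes -0.63, so the direction of the family turned with that scaling and its place relative to other genes hardly moved.

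The order of levels was close to continuous. In the control, the intervals of 35 of 37 neighbours in the order overlapped, and in the mutant those of 31 of 37. At the top of the control were *Zbtb18* at 10.4, *Zbtb7b* at 9.47 and *Zbtb4* at 8.56. At the top of the mutant were *Zbtb4* at 13.2, *Zbtb7b* at 11.7 and *Zbtb18* at 9.60. Place 1 of the 38 members with a row of their own thus passed from *Zbtb18*, a repressor known from cortical neurons, to *Zbtb4*, a methyl-CpG binder. *Zbtb20* moved from place 34 to place 5, *Zbtb16* from 32 to 16 and *Zbtb33* from 9 to 19.

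**Figure D2:**
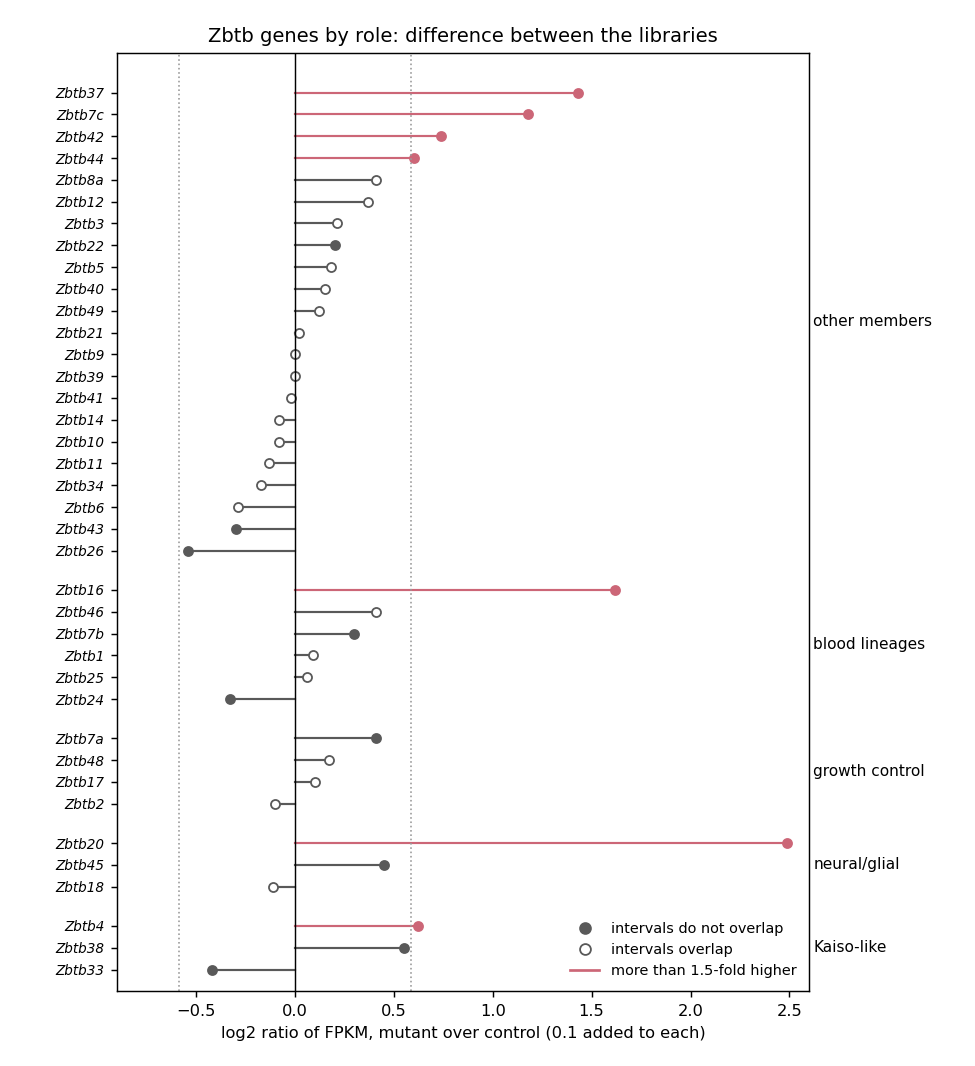
Log2 ratio of FPKM, mutant over control with 0.1 added to each (x axis), for the 38 compared Zbtb genes grouped by role, where filled points mark Cufflinks intervals that do not overlap between the libraries and dotted lines mark a 1.5-fold difference. The 7 members in red lie past the upper line, *Zbtb20* farthest at 2.49, and 0 lie past the lower line.

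The Kaiso-like group consists of *Zbtb33*, *Zbtb4* and *Zbtb38*, whose proteins bind methylated CpG, and its members differed in direction. *Zbtb33* had an FPKM of 5.61 (5.16 to 6.05) in the control and 4.15 (3.82 to 4.48) in the mutant. Kaiso mRNA was thus 0.741 times its control level, a log2 ratio of -0.42 with intervals that did not overlap, and it was not past the 1.5-fold line. Both values came from the annotated *Zbtb33* row at chrX:35542970-35550223 (mm9). The row shares 474 bases with that of *Tmem255a*, which stood at 16.8 and 22.2, higher in the mutant where *Zbtb33* was lower. Strand is not given in the tables, so reads in the shared bases cannot be assigned to either gene.

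*Zbtb4* had an FPKM of 8.56 (8.01 to 9.06) in the control and 13.2 (12.7 to 13.6) in the mutant, a log2 ratio of 0.62 and a fold change of 1.54. Its intervals did not overlap, and the fold change was just over the line. *Zbtb38* was just under it, with values of 4.54 and 6.68 and a log2 ratio of 0.55. The row of *Zbtb38* also carried the name E030011O05Rik, so its value covers both names.

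The genes around Kaiso differed little. Of 9 known partners of Kaiso and of BTB proteins, which include p120 catenin, subunits of corepressor complexes, Ctcf and Cul3, 0 were past 1.5-fold in either direction, beside 15.4% higher and 8.52% lower of all genes, and the median log2 ratio was -0.01. *Ctnnd1*, which encodes p120 catenin, had an FPKM of 36.0 and 38.6. *Ncor1*, which encodes the corepressor NCoR, stood at 25.5 and 27.2. *Hdac3*, a deacetylase of such complexes, had 39.4 and 40.2.

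Among other readers, writers and erasers of CpG methylation, 11 of 12 genes were compared, 1 was higher and 0 were lower, beside 15.4% and 8.52% of all genes. The higher gene was *Mbd1*, a methyl-CpG binder, at 12.9 and 19.5, with a log2 ratio of 0.59 just past the line. *Dnmt1*, the maintenance methyltransferase, had 13.2 and 13.4. The erasers *Tet3* and *Tet2* had log2 ratios of -0.51 and -0.44, the lowest of this list and short of the line.

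The group known from neural and glial development held the largest difference of the family. *Zbtb20* had an FPKM of 1.24 (upper bound 1.48) in the control and 7.39 (6.76 to 7.99) in the mutant, a 5.98-fold difference and a log2 ratio of 2.49. Its level was low in the control, at percentile 7.14 of all compared genes, and in the mutant it was at percentile 40.5. *Zbtb45*, which is known from the differentiation of glial cells, had 4.50 and 6.19 with a log2 ratio of 0.45 and intervals that did not overlap. *Zbtb18* had 10.4 and 9.60, a log2 ratio of -0.11 with overlapping intervals. The group thus held a 5.98-fold difference beside a member near the level of the control. The astrocyte markers are given here because *Zbtb20* is known from these cells. Of 5 such markers, 0 were past 1.5-fold, beside 15.4% higher and 8.52% lower of all genes. Their log2 ratios ran from -0.29 to 0.33. The 4 neuronal markers were all higher, beside 15.4% of all genes, with log2 ratios from 0.79 to 1.68. Among them, *Rbfox3* (0.658 and 1.51) entered the comparison only through the mutant. The part of either set in the *Zbtb20* difference was not tested.

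The *Zbtb20* locus was read more closely because the value of a gene depends on which rows carry its name. The named row spanned chr16:42907641-43620299 (mm9) in the control and chr16:42907422-43619825 in the mutant, both assembled by Cufflinks. Directly after it, up to a row named *Mir568*, lay 8 unnamed rows in the control and 5 in the mutant. The unnamed rows covered 16432 bases at 1.97 to 9.93 FPKM in the control, with a length-weighted mean of 5.02. In the mutant they covered 17435 bases at 5.58 to 18.6 FPKM, with a mean of 11.4. In the control all of these rows had a higher FPKM than the *Zbtb20* row before them. In the mutant the first of them, at 5.58, was below the *Zbtb20* row at 7.39, and the others were above it. The highest in both libraries was the last before *Mir568*. The mutant to control ratio was 5.98 in the *Zbtb20* row and 2.27 over the unnamed rows.

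The *Mir568* row was 4479 bases long in the control and 4138 in the mutant, although the annotated microRNA precursor is 83 bases long. Its FPKM was 20.1 (19.2 to 118) in the control and 22.4 (21.6 to 90.4) in the mutant, a ratio of 1.11. The upper bounds lie far above both values, so this ratio is poorly determined. Over the unnamed rows and the *Mir568* row together, the length-weighted FPKM was 8.24 and 13.5, a ratio of 1.64. In GENCODE M21 (GRCm38, a later build than that of the tables) the last exon of the *Zbtb20* transcript that ends farthest downstream is 24280 bases long, runs 23858 bases past the stop codon and contains *Mir568*. Of the 21 annotated *Zbtb20* transcripts, 1 reaches *Mir568*, and the next longest ends 21517 bases before it. Whether the unnamed rows belong to *Zbtb20* transcripts was not tested. The direction was the same in the *Zbtb20* row and in the unnamed rows after it, and the size of the difference depended on which rows were read.

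**Figure D3:**
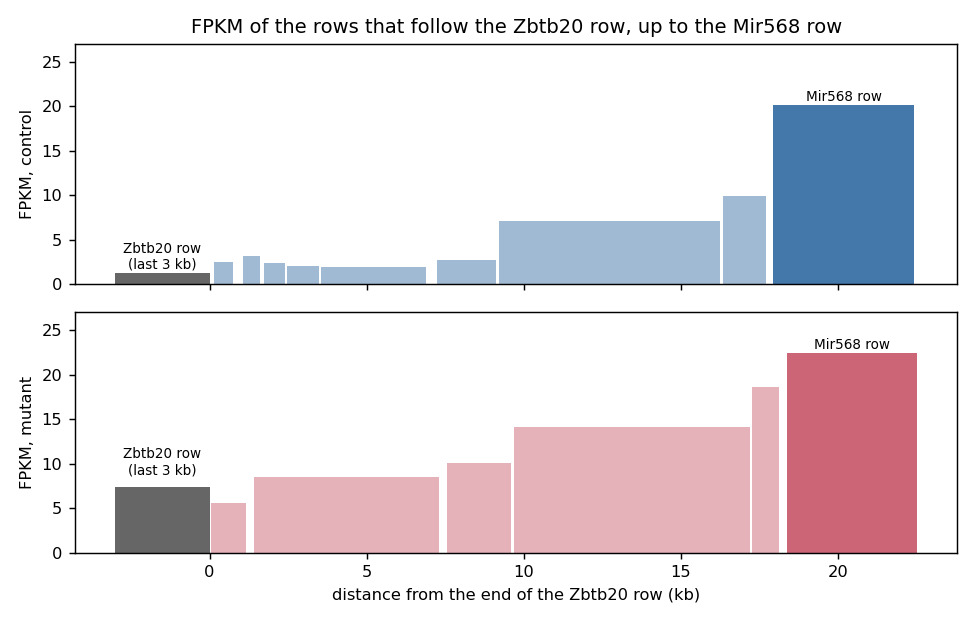
FPKM (y axis) of the rows that follow the *Zbtb20* row, by distance in kb from its end (x axis), in the control library above and the mutant library below, where grey shows the last 3 kb of the *Zbtb20* row, pale bars the unnamed rows and dark bars the *Mir568* row. The ratio between the libraries is 5.98 at the *Zbtb20* row (1.24 and 7.39) and 1.11 at the *Mir568* row (20.1 and 22.4, with upper bounds of 118 and 90.4).

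Of 4 members with roles in cell growth, 0 passed the 1.5-fold line in either direction, beside 15.4% higher and 8.52% lower of all genes. *Zbtb17* encodes Miz-1, a partner of Myc, and had an FPKM of 4.81 and 5.15. *Zbtb7a*, which encodes the repressor LRF, had 5.99 and 7.97 with a log2 ratio of 0.41 and intervals that did not overlap. *Zbtb2*, a repressor in the p53 pathway, had 3.52 and 3.29, and *Zbtb48*, which encodes a telomere-binding protein, had 2.71 and 3.07. The intervals of the other 3 overlapped, and the median log2 ratio of the 4 was 0.14.

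Of the 7 members known from blood cell lineages, 6 were compared, 1 was higher and 0 were lower, near the 15.4% of all genes that were higher. The higher gene was *Zbtb16*, which encodes PLZF, a factor of natural killer T cells and of germline stem cells. *Zbtb16* had an FPKM of 1.32 (1.11 to 1.52) in the control and 4.25 (3.93 to 4.56) in the mutant, a 3.22-fold difference and a log2 ratio of 1.62. Its row was assembled in both libraries, at chr9:48462200-48644225 (mm9) in the control. Lymphocyte markers were low. *Cd3e* had 0.323 and 0.979 with intervals that did not overlap, a 3.03-fold difference that was not counted because neither value reached 1, and *Cd3g* had 0.177 and 0.183. *Cd79a* was counted as higher at 0.612 and 1.09 with overlapping intervals, and it entered the comparison only through the mutant. *Ptprc*, found on all white blood cells, was at 1.98 and 1.90. The part of these markers in the *Zbtb16* difference was not tested. The other 5 compared members of the group were short of the line.

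*Zbtb7b*, which directs T cells to the helper fate, had 9.47 and 11.7, a log2 ratio of 0.30 with intervals that did not overlap. Its row overlapped that of Gm15417, by 1340 bases in the control and 1470 in the mutant. *Zbtb46*, known from dendritic cells, had 1.63 and 2.20, with a log2 ratio of 0.41 and overlapping intervals. *Zbtb1*, needed for lymphoid development, had 6.81 and 7.27, and its neighbour *Zbtb25*, whose row ended 705 bases away in the control, had 5.67 and 5.91. *Zbtb24*, mutated in an immunodeficiency with loss of DNA methylation, was the lower member of this group at 5.54 and 4.38, a log2 ratio of -0.33 with intervals that did not overlap. *Zbtb32*, known from activated lymphocytes, was not compared because its FPKM was 0.230 and 0.223.

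The remaining 23 members were not assigned to a role, and 22 of them were compared, of which 4 were higher and 0 lower, beside 15.4% and 8.52% of all genes. *Zbtb37* had an FPKM of 0.522 (0.382 to 0.653) in the control and 1.58 (1.36 to 1.80) in the mutant, a 3.03-fold difference and a log2 ratio of 1.43. It entered the comparison only through the mutant, so its level there had to be the higher one. Unnamed rows lay downstream of it in both libraries and were not counted in its level. The longest stood at 4.35 FPKM over 4465 bases in the control and at 4.09 over 3398 bases in the mutant. Both values lie above the named *Zbtb37* row, and whether these rows belong to *Zbtb37* transcripts was not tested. *Zbtb7c*, on chromosome 18 and known from work on metabolism and tumours, had 2.10 (1.79 to 2.40) and 4.89 (4.49 to 5.29), a 2.33-fold difference and a log2 ratio of 1.18. *Zbtb42*, known from skeletal muscle, had 1.23 (0.978 to 1.47) and 2.12 (1.84 to 2.39), a log2 ratio of 0.74. *Zbtb44* had 2.21 (upper bound 2.42) and 3.41 (lower bound 3.03), a log2 ratio of 0.60. The intervals of these 4 did not overlap between the libraries, beside 52.4% of all compared genes. This sets the 4 little apart, since 15.4% of all genes were higher and 13.6% were higher with intervals that did not overlap.

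The lower side of this group was led by *Zbtb26*, with an FPKM of 2.11 (1.84 to 2.38) in the control and 1.42 (1.24 to 1.60) in the mutant, a log2 ratio of -0.54. Its neighbour *Zbtb6*, 1248 bases away, had 3.54 and 2.89 with a log2 ratio of -0.29 and overlapping intervals. *Zbtb43* had 6.90 and 5.56, a log2 ratio of -0.30 with intervals that did not overlap, and *Zbtb34*, 18963 bases from it, had 3.57 and 3.16. Both pairs lie on chromosome 2, none of their 4 genes passed the 1.5-fold line, and the fifth member on that chromosome, *Zbtb46*, had a log2 ratio of 0.41.

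Members close to their control level made up most of the rest. *Zbtb9* had 4.19 in the control and a log2 ratio of 0.00, *Zbtb39* had 4.08 and 4.07, *Zbtb21* 3.42 and 3.48, and *Zbtb41* 3.89 and 3.84. *Zbtb10* had 1.65 and 1.56, *Zbtb14* 6.25 and 5.92 and *Zbtb11* 3.03 and 2.76. In these 7 genes the intervals overlapped and the log2 ratio lay between -0.13 and 0.02. Somewhat higher in the mutant, also with overlapping intervals, were *Zbtb8a* at 3.17 and 4.25, *Zbtb12* at 4.35 and 5.66, *Zbtb3* at 1.27 and 1.48 and *Zbtb5* at 5.54 and 6.28. *Zbtb40* had 1.62 and 1.81 and *Zbtb49* 1.74 and 1.90, and the upper bound for *Zbtb40* in the control was 9.58, far above its value. *Zbtb8b*, 47736 bases from *Zbtb8a*, was not compared because its FPKM was 0.223 and 0.300.

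*Zbtb22* could not be read on its own. Its row was merged with *Tapbp*, and in the control also with *Rgl2*, and stood at 59.3 and 67.9 FPKM, several times the level of any other member. The value describes the merged transcripts, and in the control it lay outside the interval of its row.

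BTB zinc finger genes that carry other names were examined beside the family. Of 7 compared, 2 were higher and 0 lower, beside 15.4% and 8.52% of all genes, with a median log2 ratio of -0.10. *Hic1*, a tumour suppressor, had an FPKM of 3.66 and 8.51 with a log2 ratio of 1.19, and *Bcl6*, the repressor of germinal centre B cells, had 3.83 and 7.14 with a log2 ratio of 0.88. The other 5 were lower in the mutant and short of the line, from *Mynn* at 3.59 and 3.51 to *Bcl6b* at 3.37 and 2.27 with a log2 ratio of -0.55. *Patz1* was the most abundant of them at 23.4 and 21.9, above every Zbtb member with a row of its own.

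The kind of row that carried a gene differed between the libraries and moved with the counts. A row is either a reference row, kept as annotated, or an assembled row built from the reads of that library. In both libraries a reference row carried 11 members, of which 0 were more than 1.5-fold higher against 17.7% of all such genes. An assembled row in both carried 16 members, of which 2 were higher, *Zbtb20* and *Zbtb16*, against 13.3%. In 9 members a reference row in the control became an assembled row in the mutant, and 5 of these were higher, *Zbtb37*, *Zbtb7c*, *Zbtb42*, *Zbtb4* and *Zbtb44*, against 25.7%. The other 4 in this class were *Zbtb7b*, *Zbtb1*, *Zbtb39* and *Zbtb41*. The median log2 ratio over all genes of that class was 0.20, and over its 9 members 0.60. The 2 members with the reverse pattern, *Zbtb2* and *Zbtb24*, had log2 ratios of -0.10 and -0.33 and did not pass the line. With the kind of row held the same in both libraries, 2 of 27 members were higher and 0 lower, beside 14.7% and 8.64% of all such genes. The median log2 ratio of these 27 members was 0.12. The part of the row kind in the values of the 5 genes was not tested.

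**Figure D4:**
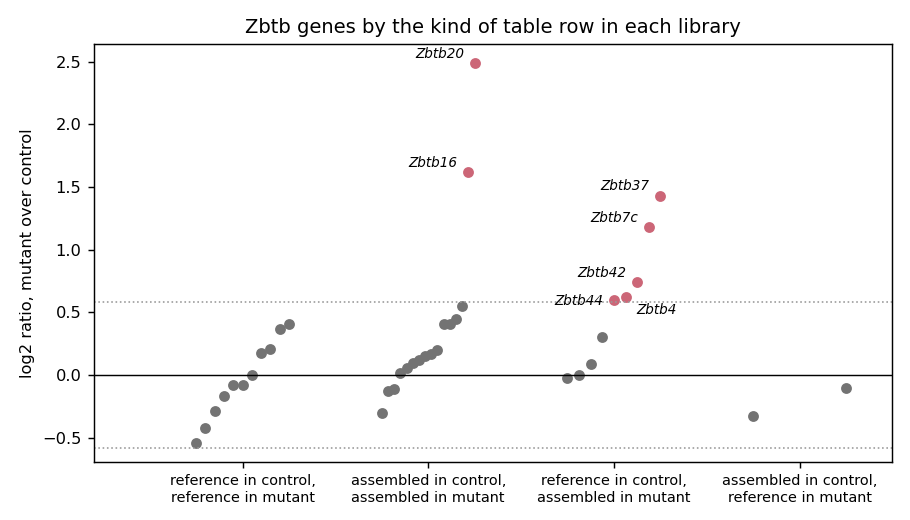
Log2 ratio, mutant over control (y axis), of the 38 compared Zbtb genes by the kind of table row that carried them in each library (x axis), where each point is 1 gene, red points are more than 1.5-fold higher and dotted lines mark 1.5-fold. Of the 7 red points, 5 are in the class with a reference row in the control and an assembled row in the mutant and 0 in the class with reference rows in both, where *Zbtb33* lies at -0.42.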

How the data were processed

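For each library, the authors aligned the reads with TopHat, its settings left at their defaults, and Cufflinks then gave FPKM values. The submitters' processing notes name mm9, and tool versions are not given in the sources used here. Each deposited table gives FPKM per row with interval bounds and a status. Merged names were split, rows summed per symbol, and members compared as described above, with no test. The members and lists were chosen with earlier results of these data known. Every member is accounted for by rule, and genes outside the family come from fixed lists of BTB relatives, Kaiso partners, methylation genes and cell type markers, with *Tcf7l2*. A few listed genes are not reported here. Row neighbours named at a locus were chosen after their values were seen. Depth was the smallest at which lower bounds of unnamed rows under 100 bases (194 and 349 rows) were whole fragments within 0.02, which held for 99.5% and 100% of them. RefSeq and GENCODE were joined by symbol only, and coordinates were never converted. The computation was tested on simulated data. Python 3.11.15, numpy 2.4.6, pandas 2.3.3 and matplotlib 3.10.9 were used. Alternatives covered pseudocounts, filters, scalings, row handling and stricter calls.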

Additional observations from a re-analysis of the deposited data

How the results depend on the processing

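The count of higher members, 7, became 4 with a pseudocount of 1 (11.8% of all genes compared there) or a fold above 2 (6.87%), and 2 of 17 (12.2%) where either library had to reach an FPKM of 5. Where both libraries had to reach an FPKM of 1, it was 6 of 37 (12.2%), without *Zbtb37*. Holding the kind of row the same, an alternative chosen after seeing the data, gave 2 of 27 (14.7%). Centring on the median of all genes, scaling to the 75th percentile or rescaling named rows gave 5 each, without *Zbtb4* and *Zbtb44* (13.8%, 13.2% and 14.7%). *Zbtb20* and *Zbtb16* were past 1.5-fold under every scaling tried. The count of lower members, 0, became 1 (*Zbtb26*) under the 75th percentile (10.4%) and under rescaled named rows.

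Rescaling all rows to a sum of 1000000 shifted log2 ratios by about -0.67, the log2 ratio of the sums, and by less or more per gene with the pseudocount. Unnamed rows held 70.7% of the FPKM sum of the control table and 80.7% of the mutant table. The count of lower members then became 16 of 35, beside 54.4% of 13208 genes, and that of higher members 2, beside 3.67%. The median of the members was -0.55, *Zbtb33* was at -1.06, past the line, and *Zbtb20* at 1.79. *Zbtb4* and *Zbtb44* turned to -0.05 and -0.04. With a pseudocount of 1, *Zbtb20* was at 1.91. The other alternatives moved *Zbtb33* only between -0.50 and -0.36. No paired analysis was possible because there was 1 library per genotype, and for that reason no library could be left out. Depth limits the low members most, *Zbtb8b* and *Zbtb32* among them.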
